A study of Mus musculus with 8 samples.

Results

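The genes described here encode the subunits of the mouse proteasome together with its activators, its inhibitor and its assembly chaperones. They were chosen by name: every probe set, a group of oligonucleotides read as 1 value, whose annotation gives exactly 1 gene symbol of the Psma, Psmb, Psmc, Psmd, Psme, Psmf or Psmg series. The naming rule used no measured value, though the members were chosen with earlier results of these data known. It found 100 of the 45101 probe sets on the array, which stand for 47 of the 18193 genes named by such probe sets. A further probe set that carries the symbols of both Psme2 and Psme2b was left out, so Psme2 was not analysed. By role there were 7 genes of the alpha ring, 7 of the beta ring, 5 immunoproteasome or tissue-specific core subunits, 9 of the base, 8 of the lid, 4 activators or inhibitors and 7 assembly factors.

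Total RNA of germinal vesicle (GV) oocytes, immature mouse oocytes with an intact nucleus, was hybridised to 8 single-colour Affymetrix arrays. The 4 milrinone samples were GV oocytes cultured for 48 h with milrinone, a phosphodiesterase inhibitor used to hold oocytes at the GV stage, and the 4 untreated samples were GV oocytes without that culture. The labels name no strain, genotype, age or number of oocytes or animals, so replicates may be technical, and no labelled group was cultured without the drug, so milrinone, culture and elapsed time cannot be told apart. Each array received 15 µg of biotinylated cRNA, so a level is a share of its sample's RNA, and in such bulk samples fewer cells of a type and less RNA per cell cannot be told apart.

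The proteasome degrades proteins that carry ubiquitin chains. Its core particle is a barrel of alpha rings, which form the gate, and beta rings, which hold the proteolytic sites. A regulatory particle caps the barrel, with a base of ATPases that unfold substrates and a lid that removes ubiquitin. In oocytes the proteasome destroys cyclin B and securin after meiosis has resumed, and GV oocytes hold a large store of maternal transcripts. In immune cells and after interferon, the catalytic subunits encoded by Psmb6, Psmb7 and Psmb5 can be replaced by those of Psmb9, Psmb10 and Psmb8, which makes an immunoproteasome.

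In all 3 pairs the members differed in how many arrays gave them a value. The upstream sequences of the 2 pairs with both promoters matched are shown for that reason. Psmb5 and Psmb6 were measured on all 8 arrays, whereas Psmb8 had an empty cell on every array and Psmb9 on 6 of 8. The pair not shown, Psmb7 and Psmb10, had values on 8 arrays and on 1. Each sequence is the 250 bases before the annotated start on the gene's own strand, from RefSeq on GRCm38.p6. Psmb5 lies on the minus strand at chr14:54617996-54618245, Psmb8 on the plus strand at chr17:34197945-34198194, Psmb6 on the plus strand at chr11:70525107-70525356 and Psmb9 on the minus strand at chr17:34187331-34187580. Capitals mark TGACNNNGC, the core of the antioxidant response element, which NFE2-like factors that control proteasome genes are known to bind.
Psmb5: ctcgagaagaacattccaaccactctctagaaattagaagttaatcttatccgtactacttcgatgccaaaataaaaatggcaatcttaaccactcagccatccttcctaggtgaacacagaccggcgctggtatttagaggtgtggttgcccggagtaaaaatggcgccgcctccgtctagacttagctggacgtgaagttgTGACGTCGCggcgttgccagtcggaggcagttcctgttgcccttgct
Psmb8: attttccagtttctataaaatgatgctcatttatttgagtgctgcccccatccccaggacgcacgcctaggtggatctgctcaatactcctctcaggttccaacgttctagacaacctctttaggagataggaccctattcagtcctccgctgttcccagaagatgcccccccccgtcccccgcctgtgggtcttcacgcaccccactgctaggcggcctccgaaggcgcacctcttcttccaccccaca
Psmb6: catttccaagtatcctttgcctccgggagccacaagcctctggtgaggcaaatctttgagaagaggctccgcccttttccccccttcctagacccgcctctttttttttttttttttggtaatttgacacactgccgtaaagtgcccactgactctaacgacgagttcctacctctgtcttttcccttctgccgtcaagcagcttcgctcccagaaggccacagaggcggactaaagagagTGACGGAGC
Psmb9: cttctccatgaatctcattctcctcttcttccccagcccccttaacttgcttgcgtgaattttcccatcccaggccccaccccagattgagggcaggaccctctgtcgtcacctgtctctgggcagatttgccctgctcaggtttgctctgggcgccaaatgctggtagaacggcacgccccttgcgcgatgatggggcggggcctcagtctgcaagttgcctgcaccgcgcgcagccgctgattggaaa
The match in Psmb5 began 47 bases before the start and that in Psmb6 began 9 bases before it, while the Psmb8 and Psmb9 windows held none on either strand. RefSeq promoters were matched for 39 of the 47 genes, 41 promoters in all. TGACNNNGC stood on 1 strand or the other in 5 of the 41 (12.2%), those of Psmb5, Psmb6, Psmc6, Psmd12 and Psmd9, and in 10.2% of all 32851 promoters of the same length. A pair of GAAA words with 2 free bases between them, the core of the interferon-stimulated response element, stood in 3 of the 41 (7.32%), those of Psmb3, Psmd4 and Psmd9, and in 2.98% of all promoters. CCAAT stood in 14 of the 41 (34.1%) and in 33.8% of all promoters. Both strands were searched, no motif lies within another, and a match describes the sequence only.

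A probe set counts as listed on an array where the deposited table holds a value for it, and is empty there otherwise. Of the 100 proteasome probe sets, 58% were listed on all 8 arrays, 24% on some and 18% on none, against 32.0%, 32.6% and 35.5% of all 45037 probe sets that are not controls. By gene, 39 of 47 (83.0%) had a probe set listed on all 8 arrays, against 47.2% of 18193 genes. These 39 included every alpha ring gene, every beta ring gene and every base gene. The proteasome probe sets listed numbered 67, 64, 62 and 66 on milrinone arrays 1 to 4, and 73, 65, 63 and 67 on untreated arrays 1 to 4. The count was highest on untreated 1, which also listed the most probe sets of any kind (23237, against 18572 to 21151 on the other 7) and had the lowest median correlation with the other arrays (0.93, against 0.97 to 0.98).

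The identity of the samples was checked on marker lists. All 16 probe sets of the oocyte markers were listed on every array, with a summed intensity of 154960 to 166623 on milrinone arrays and 152127 to 178207 on untreated arrays. Of 43 probe sets of cumulus and granulosa markers, the somatic cells that surround the oocyte, 11 to 17 were listed on milrinone arrays and 23 to 33 on untreated arrays. Their summed intensity was 2861 to 3822 on milrinone arrays, against 20921 to 23512 on untreated 2, 3 and 4 and 91349 on untreated 1.

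No proteasome probe set passed the test for a difference between milrinone and untreated oocytes, and most genes were measured closely enough to bound the difference. The test was limma on log2(intensity + 16) over the 16288 probe sets that had values on 3 or more of the milrinone arrays and on 3 or more of the untreated arrays, with Benjamini-Hochberg adjustment and a threshold of 0.05. Of the 100 proteasome probe sets 60 could be tested, for 40 of the 47 genes, and 0 of these 60 passed, while 19 of all 16288 (0.117%) did, all of them lower in milrinone. The smallest adjusted p among the 60 was 0.46. At an unadjusted p under 0.05, 2 were higher in milrinone (5.62% of all probe sets) and 1 was lower (4.0%). The groups did not overlap for 2 that were higher in milrinone and for 0 that were lower, against 5.06% and 2.74% of all probe sets tested. The 95% interval of the log2 difference lay within 0.5 either way for 41 of the 60, against 40.4% of all probe sets tested. It lay within 1 either way for 57 of the 60, against 90.4% of all.

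Each gene was then described by its brightest tested probe set, and log2 differences are given as milrinone minus untreated throughout. Over the 40 genes the median log2 difference was 0.00, with a range of -0.57 for Psmb5 to 0.21 for Psme3. Over all 9454 genes tested the median was 0.07, and the 10th and 90th percentiles were -0.31 and 0.31. The difference was above 0 for 21 proteasome genes and below 0 for 19, and it was above 0 for 62.8% of all genes tested. The 95% interval of the log2 difference lay within 0.5 either way for 31 of the 40 genes, which holds for 43.3% of all genes and for 86.2% of the 1447 genes at least as bright as the median proteasome gene. It lay within 1 either way for 38 of 40, against 89.9% of all genes. Median standard errors were 0.12 for the proteasome genes, 0.17 for all genes and 0.10 for those 1447 genes. The 1447 genes all had a mean intensity of at least 3109, whereas proteasome genes ranged down to 78.2, so these sets were not matched in brightness. The 2 genes whose interval reached past 1 were Psmb5 and Psmd7, each with 1 untreated array well above the other 7.

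**Figure D1:**
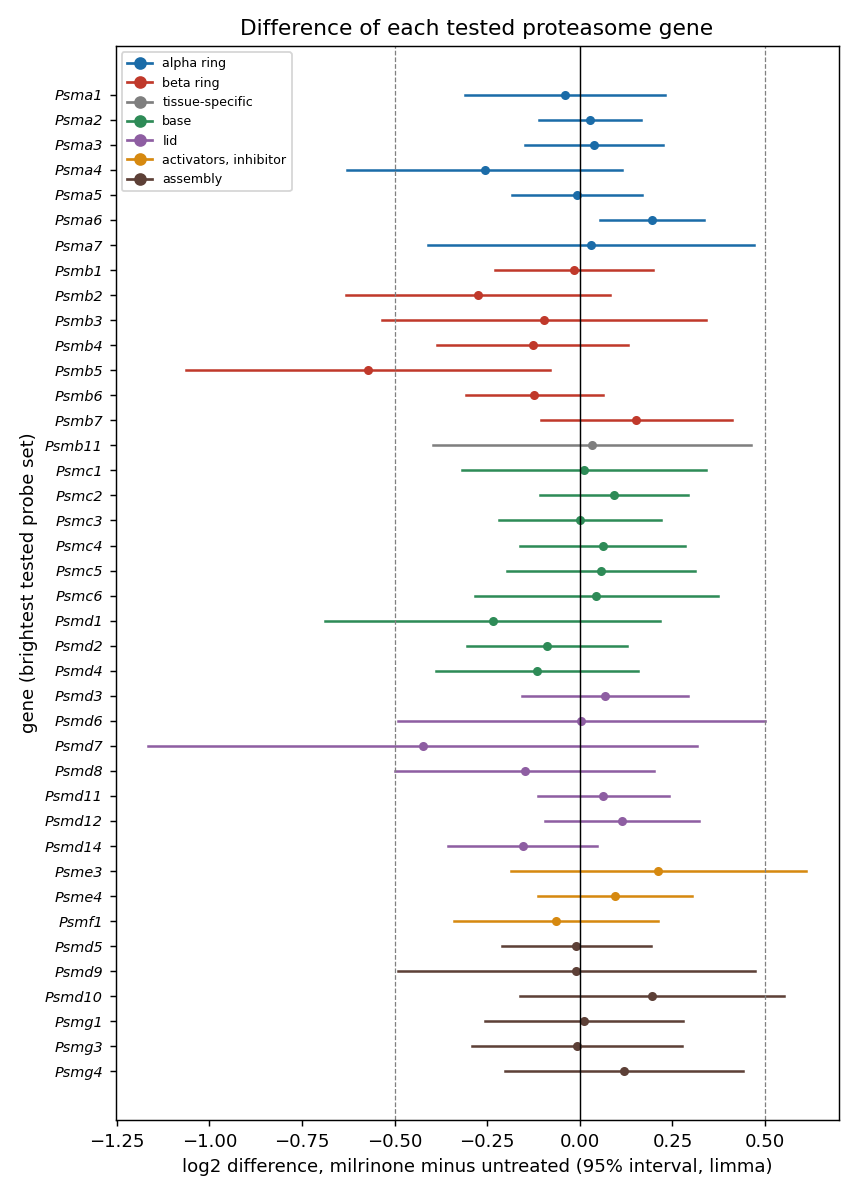
Log2 difference of each of the 40 tested proteasome genes (point, brightest tested probe set; bar, 95% interval from limma; milrinone minus untreated on the horizontal axis), grouped by role from the alpha ring at the top to the assembly factors at the bottom. Dashed lines stand at 0.5 either way, and 31 of the 40 intervals lie between them.

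The alpha ring genes had a median log2 difference of 0.03 with a range of -0.26 to 0.19, and 6 of the 7 intervals lay within 0.5 either way. Psma6, a gate-side ring subunit, had intensities of 7799.7, 7871, 7445 and 7407 on the milrinone arrays, against 6880.3, 6342, 6648 and 6797 on the untreated arrays. All 4 milrinone values were above all 4 untreated values. This was the only tested gene, by its brightest probe set, whose groups did not overlap: 1 of 40 was higher without overlap (5.17% of all genes) and 0 were lower (2.89%). The means were 7631 ± 239 and 6667 ± 237 (SD, n = 4 each), a 1.14-fold difference, with a log2 difference of 0.19 (SE 0.06, 95% interval 0.05 to 0.34) that did not pass limma's threshold (adjusted p = 0.46). That probe set is of a kind whose oligonucleotides can match other transcripts too. A second Psma6 probe set read 2423, 2915, 2595 and 2623 in milrinone and 2418, 2293, 2619 and 1664 in untreated oocytes, with overlapping groups and a log2 difference of 0.25 (-0.07 to 0.57), or 0.11 without untreated 4. The third and dimmest tested Psma6 probe set differed by -0.03 (-0.33 to 0.28).

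Psma2 varied little between arrays. Its intensities were 9705, 10445, 10138.5 and 9531 on milrinone arrays, against 9179.6, 9742, 9757 and 10400.1 on untreated arrays. The groups overlapped, with means of 9955 ± 415 and 9769.6 ± 499 (SD, n = 4 each) and a log2 difference of 0.03 (-0.11 to 0.17). Psma3 read 5172, 5026, 5061 and 4957 in milrinone and 5390.2, 4801, 5181 and 4374 in untreated oocytes, with a log2 difference of 0.04 (-0.15 to 0.22). Psma5 and Psma1 had log2 differences of -0.01 (-0.18 to 0.17) and -0.04 (-0.31 to 0.23).

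The values of Psma4 and Psma7 turned on 1 array. Psma4 read 2812, 3279, 3174 and 3408 in milrinone and 3143, 3447, 3392 and 5553 in untreated oocytes. Untreated 4 stood above the other 7 arrays, and the log2 difference was -0.26 (SE 0.17, -0.63 to 0.11), or -0.07 without that array. Psma7 read 2561, 2979, 2832 and 2633 in milrinone and 1986, 2478, 2493 and 4263 in untreated oocytes. Again untreated 4 was highest and untreated 1 lowest, and the log2 difference of 0.03 (-0.41 to 0.47) became 0.25 without untreated 4.

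The beta ring genes had the lowest median log2 difference of the classes, -0.12, with 6 of 7 below 0 and a range of -0.57 to 0.15. Its catalytic subunits differed in direction. Psmb5, the chymotrypsin-like subunit, read 1198, 1377, 1362 and 1450.1 in milrinone and 3213, 2062, 1360.3 and 1792 in untreated oocytes. The milrinone arrays were close together, untreated 3 lay among them, and untreated 1 was the highest. The means were 1347 ± 106 and 2107 ± 792 (SD, n = 4 each), and the log2 difference of -0.57 (SE 0.22, -1.06 to -0.08) did not pass limma's threshold (adjusted p = 0.49). Without untreated 1 it was -0.35 (limma adjusted p = 0.61).

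Psmb6, the caspase-like subunit, read 4359, 4628, 4275 and 4115 in milrinone and 4574, 4681, 4465 and 5225 in untreated oocytes, a log2 difference of -0.12 (-0.31 to 0.06). Its groups overlapped. Psmb7, the trypsin-like subunit, read 3580.1, 4515, 4030.3 and 4207 in milrinone and 3460.1, 3779.9, 4334 and 3168 in untreated oocytes. It was the only beta ring gene with a difference above 0, 0.15 (-0.11 to 0.41), and its groups overlapped. None of these 3 catalytic genes passed the test.

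Psmb2, a structural beta subunit, read 2379.8, 2146, 2590.0 and 3308 in milrinone and 3829, 3229, 3033 and 2510.1 in untreated oocytes, with overlapping groups and a log2 difference of -0.27 (-0.63 to 0.08). Psmb3 read 3788, 3196, 3595 and 3223 in milrinone and 5847, 3489.5, 3261 and 2759.6 in untreated oocytes. Untreated 1 was highest and untreated 4 lowest, and the log2 difference of -0.10 (-0.53 to 0.34) became 0.12 without untreated 1. A second, dimmer Psmb3 probe set differed by -0.42 (-0.85 to 0.005). It stayed below 0, at -0.59 to -0.31, when 1 array at a time was left out. Psmb4 and Psmb1 differed by -0.13 (-0.38 to 0.13) and -0.02 (-0.23 to 0.20) on the log2 scale. The mean deviation of the 7 beta ring genes from their own 8-array means was -0.11, -0.05, -0.09 and -0.05 on milrinone arrays, against 0.27, 0.07, -0.05 and 0.01 on untreated arrays, on the log2 scale. Untreated 1, the highest, is also the array with the most cumulus and granulosa marker signal, and the part of that signal in the beta ring values was not tested. The median log2 difference of the beta ring was -0.14 without untreated 1, -0.07 without untreated 4 and -0.03 without both.

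A dim second probe set of Psmb1, named here after its values were seen, had groups that did not overlap. It read 156, 144, 125 and 116 in milrinone and 88.0, 91.9, 114 and 96.1 in untreated oocytes, all milrinone values being the higher. The log2 difference was 0.41 (0.09 to 0.73, limma adjusted p = 0.48), while the bright probe set of the gene differed by -0.02. Over the 14 genes with several tested probe sets, the probe sets disagreed in sign for 9, and the spread exceeded 0.5 on the log2 scale for 1, Psmd11.

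**Figure D2:**
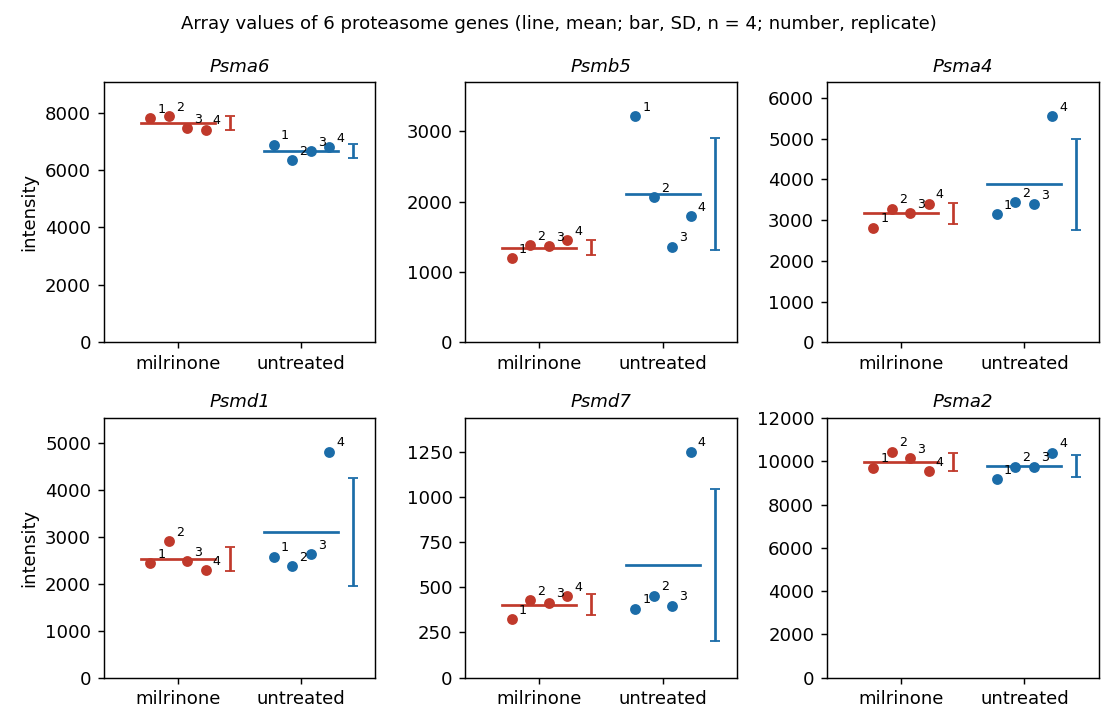
Array values of 6 proteasome genes on linear intensity axes that start at 0, milrinone left and untreated right (point, array with its replicate number; line, mean; bar, SD, n = 4). The Psma6 groups do not overlap, untreated 1 stands out for Psmb5, untreated 4 stands out for Psma4, Psmd1 and Psmd7, and Psma2 is nearly level.

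The immunoproteasome genes were listed on few arrays or none, and none of Psmb8, Psmb9 and Psmb10 could be tested. Psmb8, which takes the place of Psmb5, had both of its probe sets empty on all 8 arrays. Psmb9, which takes the place of Psmb6, was empty on all milrinone arrays and read 211 on untreated 1 and 81.2 on untreated 4. Psmb10, which takes the place of Psmb7, was listed on untreated 1 alone, at 288. An empty cell is no upper limit here, since other probe sets were listed at lower intensities, so no fold is given for these genes.

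Psme1, an interferon-inducible activator subunit that works with immunoproteasomes, read 39.6 on milrinone 1 and was empty on the other milrinone arrays, while it read 798, 84.3, 108 and 47.2 on the untreated arrays. It was thus listed on 1 milrinone array and 4 untreated arrays, with the highest value on untreated 1. In all, 3 of the 100 proteasome probe sets were listed on at least 3 untreated arrays and at most 1 milrinone array, those of Psme1, Psmd13 and Psmg2, against 3.12% of all probe sets. The reverse pattern held for 1, a dim Psmd11 probe set, against 0.655%. Another 3 were listed on untreated 1 and nowhere else, against 4.23%, so these shares were near those of the whole array.

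Marker lists of other cells were read beside these genes. Of 28 leukocyte probe sets, 8 to 12 were listed on milrinone arrays and 12 to 17 on untreated arrays, with summed intensities of 2395 to 6364 and 2612 to 7132. Lyz2, a lysozyme of macrophages, was empty on the milrinone arrays and read 216, 157, 740 and 165 on the untreated arrays. Ptprc, the pan-leukocyte antigen, read 13.3 on milrinone 4 alone of its group, and 45.9, 30.3, 62.1 and 18.7 on the untreated arrays. Of the 14 leukocyte genes, 4 (Cd68, C1qb, Laptm5 and H2-Aa) were listed on all 8 arrays, 3 (C1qa, Fcer1g and H2-Ab1) on none, and 6 on more untreated than milrinone arrays. The brightest H2-Aa probe set, of the kind that can match other transcripts, read 2833, 2647, 1033 and 2769.8 on the milrinone arrays and 2148, 988, 2494 and 945 on the untreated arrays, so its groups overlapped. Of 14 endothelial and stromal probe sets, 2 to 3 were listed on milrinone arrays and 6 to 10 on untreated arrays, with summed intensities of 506 to 666 and 1116 to 9714. The granulosa marker Hsd3b1, a steroidogenic enzyme, read 224 and 165 on milrinone 2 and 3 and was empty on the other milrinone arrays, against 15428, 3688, 4335 and 2116 on the untreated arrays. The highest values of Psme1, Psmb9 and Psmb10 stood on untreated 1, as did the highest granulosa and stromal sums. The leukocyte sum was 5766 there, below 7132 on untreated 3 and 6364 and 6203 on milrinone 2 and 4. The part of other cells in the Psme1, Psmb9 and Psmb10 values was not tested.

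**Figure D3:**
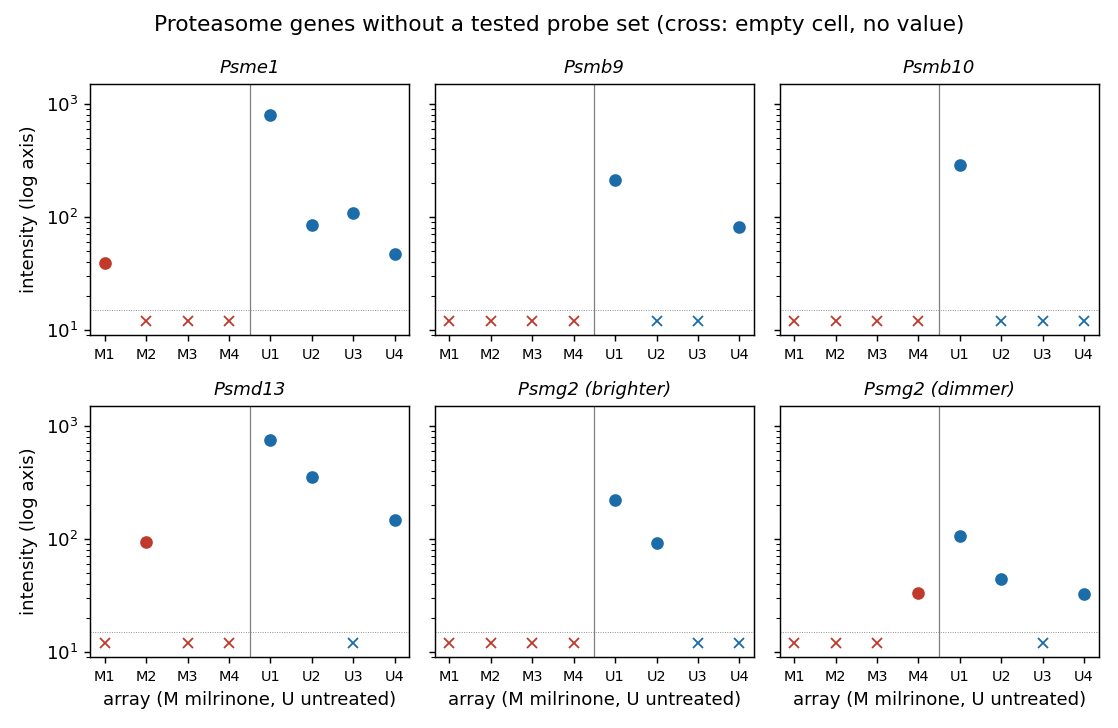
Intensity on a log axis of 6 probe sets of genes that could not be tested, for milrinone arrays M1 to M4 at the left and untreated arrays U1 to U4 at the right of each panel. Crosses at the bottom mark empty cells, which carry no value, and the highest point of every panel is on U1.

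The tissue-specific core subunits were also rarely or dimly listed. Psma8, an alpha subunit known from male germ cells, read 33.1 on untreated 1 and was empty on the other 7 arrays. Psmb11, a beta subunit known from the thymic cortex, was tested on 6 arrays. It read 69.4, 82.5 and 84.6 on milrinone 1, 3 and 4, and 98.2, 66.0 and 68.6 on untreated 2, 3 and 4, with the other 2 cells empty and left out of its test. The groups overlapped, and the log2 difference was 0.03 (-0.40 to 0.46).

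The base genes had a median log2 difference of 0.01 with a range of -0.24 to 0.09, and 8 of the 9 intervals lay within 0.5 either way. Psmc2, an ATPase subunit, read 7226, 7302, 7184 and 6626 in milrinone and 6509.6, 5830.0, 6634 and 7729.7 in untreated oocytes, with overlapping groups and a log2 difference of 0.09 (-0.11 to 0.29). These values came from a probe set of the kind whose oligonucleotides can match other transcripts too. A dimmer Psmc2 probe set differed by -0.06 (-0.34 to 0.21). The log2 differences of the other 5 ATPase genes were 0.01 for Psmc1, 0.00 for Psmc3, 0.06 for Psmc4, 0.06 for Psmc5 and 0.04 for Psmc6. The widest of their intervals was that of Psmc1, -0.32 to 0.34.

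The base also holds scaffold and ubiquitin-binding subunits. Psmd1, a scaffold, read 2439.8, 2902, 2475 and 2287 in milrinone and 2580.2, 2369.7, 2624 and 4815 in untreated oocytes. Only untreated 4 stood apart, and the log2 difference of -0.24 (-0.69 to 0.22) became -0.0034 without it. Psmd2, a scaffold that docks ubiquitin-like domains, read 2944, 3608, 3323 and 3081 in milrinone and 3555, 3154, 3644 and 3415 in untreated oocytes, a log2 difference of -0.09 (-0.31 to 0.13) with overlapping groups. Psmd4, a ubiquitin receptor, read 7811, 9005, 6716 and 7290.1 in milrinone and 7295, 7832, 7944 and 10433 in untreated oocytes. Untreated 4 was again the highest array, and the groups overlapped (log2 difference -0.11, -0.39 to 0.16, or -0.0045 without untreated 4). A second, dimmer Psmd4 probe set differed by -0.36 (-0.83 to 0.10), or -0.16 without untreated 4.

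The lid genes that could be tested, 7 of 8, had a median log2 difference of 0.00 with a range of -0.42 to 0.11. Psmd14, the deubiquitinase of the lid, read 4346, 4292, 4479 and 5018 in milrinone and 5642, 5116, 4808 and 4645 in untreated oocytes. The groups overlapped through milrinone 4, and the log2 difference was -0.15 (-0.36 to 0.05). Psmd7, the subunit that pairs with Psmd14, read 322, 429, 416 and 449 in milrinone and 382, 453, 399 and 1250.3 in untreated oocytes. Apart from untreated 4 the arrays overlapped, and the log2 difference of -0.42 (SE 0.33, -1.16 to 0.32) became -0.03 without that array.

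The structural subunits of the lid had overlapping groups too. Psmd12 read 4154, 4488, 4177 and 3937 in milrinone and 3389, 3945, 4259 and 3921 in untreated oocytes, a log2 difference of 0.11 (-0.09 to 0.32). Psmd8 read 1507, 2354, 1634 and 1903 in milrinone and 1713, 2045, 2026 and 2357 in untreated oocytes, a log2 difference of -0.15 (-0.50 to 0.20). Untreated 4 stood out downwards for Psmd6, which read 3994, 4246, 4257 and 3797 in milrinone and 4175, 5200.2, 5341 and 2332 in untreated oocytes. Its log2 difference was 0.00 (-0.49 to 0.50) over all arrays and -0.37 without untreated 1 and 4 (limma adjusted p = 0.12). A second, dimmer Psmd6 probe set read 1829 on untreated 4, inside the untreated range of 1674 to 2132. That probe set differed by 0.12 (-0.13 to 0.37). Psmd3 and Psmd11 differed by 0.07 and 0.06.

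For Psmd11 a second probe set read 5026, 4253, 5741 and 5496 in milrinone and 4057, 3997, 5248 and 1971 in untreated oocytes. Untreated 4 was the lowest there but the highest on the bright probe set of the same gene, at 7252, and the second probe set's log2 difference was 0.50 (-0.06 to 1.05, limma adjusted p = 0.53), or 0.21 without untreated 4. The other 2 tested probe sets of Psmd11 differed by 0.01 and -0.04. The brightest of the 4 probe sets of Psmd13, the remaining lid subunit, read 93.8 on milrinone 2 alone of its group. It read 746, 353 and 147 on untreated 1, 2 and 4 and was empty on untreated 3. Another read 156 on milrinone 4 and 300 on untreated 1. A dim probe set read 24.9 and 21.7 on untreated 1 and 4 only, and the last was empty on every array. By any probe set the gene was listed on 2 milrinone and 3 untreated arrays. Its highest value was on untreated 1, and it was not tested.

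Psme3, an activator subunit of the nucleus, read 1204, 968, 935 and 935 in milrinone and 936, 884, 1084 and 625 in untreated oocytes. Milrinone 1 was the highest array and untreated 4 the lowest, and the log2 difference of 0.21 (SE 0.18, -0.19 to 0.61) was the highest of the 40 genes but 0.06 without untreated 4. Psme4, a large nuclear activator known for its part in spermatogenesis, read 4939, 5561, 5083 and 5496 in milrinone and 4385, 4775, 5653 and 4978 in untreated oocytes, a log2 difference of 0.09 (-0.11 to 0.30) with overlapping groups. Psmf1, which inhibits the core particle in vitro, read 4309, 3945, 3019 and 3322 in milrinone and 3501, 3625, 3759 and 4274 in untreated oocytes. Its untreated values lay within the range of the milrinone values, and the log2 difference was -0.06 (-0.34 to 0.21). The other, dimmer tested probe sets of Psmf1 differed the other way, by 0.07, 0.12 and 0.33 (-0.08 to 0.73 for the last).

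The assembly factors had a median log2 difference of 0.00 with a range of -0.01 to 0.20, and 5 of the 6 tested genes had intervals within 0.5 either way. Psmd10, a chaperone of the base, read 1232, 1299, 1113 and 1149.6 in milrinone and 763, 1169, 1092 and 1213 in untreated oocytes. Untreated 1 was the lowest array, and the log2 difference was 0.20 (-0.16 to 0.55), or 0.05 without that array. Psmd5, another base chaperone, read 3722, 3865, 3411 and 3182 in milrinone and 3469, 3548, 3535 and 3683 in untreated oocytes, a log2 difference of -0.01 (-0.21 to 0.19). Psmd9, which also binds the base, differed by -0.01 with a wider interval (-0.49 to 0.47), as it read 1616 to 1843 on milrinone arrays, against 1093 on untreated 2 and 2605 on untreated 4.

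Psmg4, a chaperone of the core particle, read 1458, 1498, 1335 and 1064 in milrinone and 1351, 1179, 1069.6 and 1304 in untreated oocytes. The groups overlapped, with a log2 difference of 0.12 (-0.20 to 0.44). Psmg1, which helps to build the alpha ring, read 2318, 2132, 2189 and 2412 in milrinone and 1874, 2513, 2145 and 2507 in untreated oocytes, with a log2 difference of 0.01 (-0.26 to 0.28). Psmg2, the partner of Psmg1, was not tested. The brightest of its 3 probe sets read 221 and 91.4 on untreated 1 and 2 and was empty on the other arrays. Another read 33.5 on milrinone 4, against 105, 43.9 and 32.7 on untreated 1, 2 and 4. The dimmest read 28.9 and 35.6 on milrinone 1 and 3, against 28.2 and 26.2 on untreated 1 and 3. By any probe set the gene was listed on 3 milrinone and 4 untreated arrays.

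Grouped by function, the core particle had a median log2 difference of -0.02 over 15 tested genes, the base 0.01 over 9, the lid 0.00 over 7, and the activators, inhibitor and assembly factors together 0.01 over 9. These medians were not tested against each other. Single arrays stood at the ends of the range unevenly. Among the 39 tested genes listed on all 8 arrays, untreated 4 gave the highest value for 14 and the lowest for 7, and untreated 1 gave the highest for 8 and the lowest for 9. The milrinone arrays gave the highest value for 2, 8, 0 and 0 genes, and the lowest for 6, 2, 6 and 5. Untreated 2 and 3 gave the highest value for 1 and 6, and the lowest for 3 and 1. Over all 8507 such genes, milrinone 1 to 4 were highest for 12.5%, 16.3%, 8.62% and 11.6% and untreated 1 to 4 for 16.01%, 15.5%, 5.35% and 14.0%. The milrinone arrays were lowest for 7.81%, 7.62%, 5.81% and 5.92% of them and the untreated arrays for 38.1%, 5.44%, 4.43% and 24.85%. Of the 16 proteasome genes with a log2 difference of at least 0.1 in size, 15 (all but Psma6) had a difference over 1.5 times smaller when 1 array was left out. The largest reduction came without untreated 4 for 8 of them and without untreated 1 for 5. The same count was not made over all genes, so it cannot be read as particular to the proteasome genes or to these arrays.

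Untreated 4 lay above the median of the other 7 arrays by 1.55 for Psmd7, 0.96 for Psmd1, 0.76 for Psma4 and 0.73 for Psma7 on the log2 scale. It lay below that median for Psmd6 (-0.86), Psme3 (-0.57) and Psmc6 (-0.48). The summed granulosa signal of untreated 4 was close to that of untreated 2 and 3. Untreated 1 lay above the median of the others by 1.21 for Psmb5, 0.84 for Psmb3 and 0.56 for Psmb2, and below it for Psmd10 (-0.60) and Psma7 (-0.40).

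**Figure D4:**
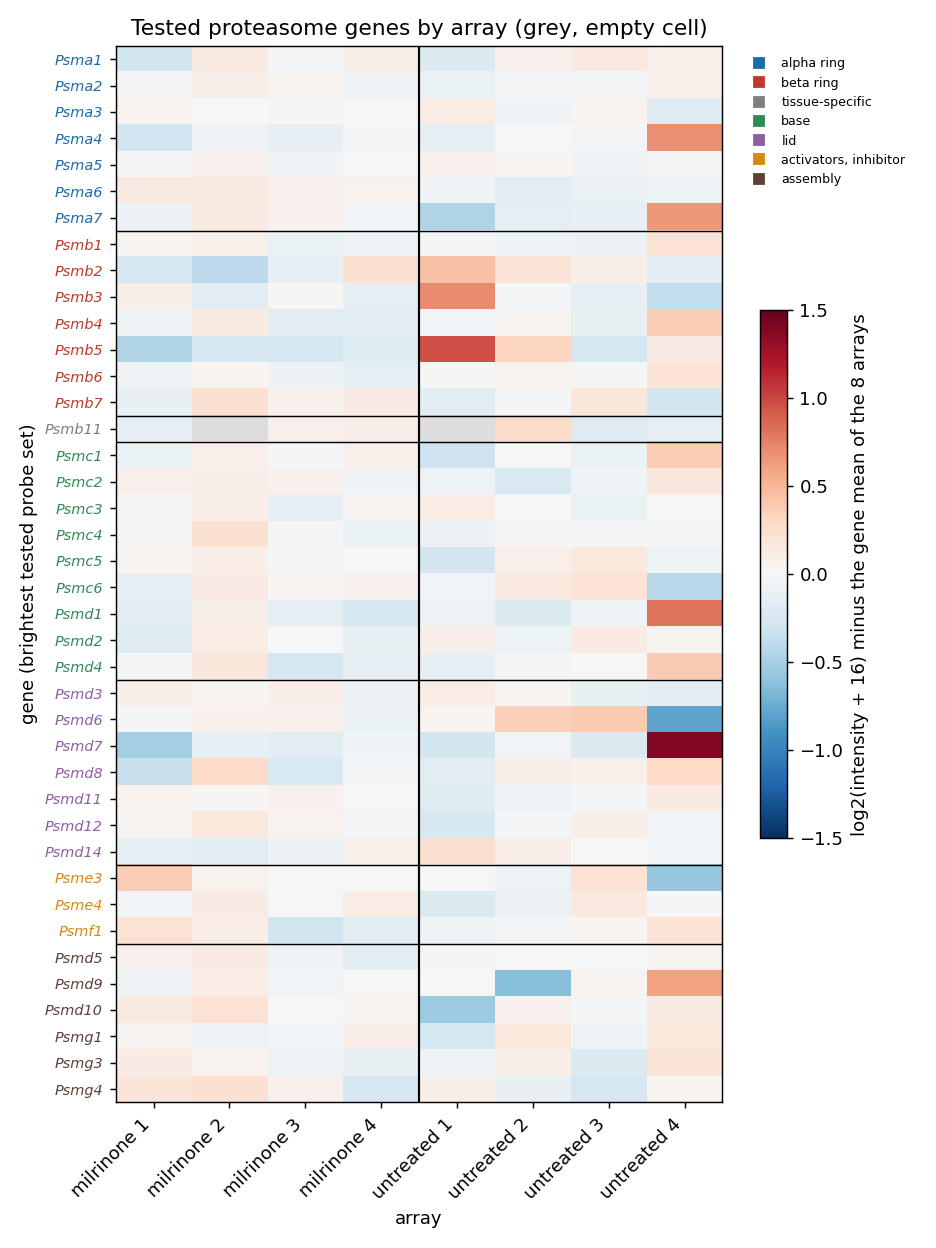
Deviation of log2(intensity + 16) from the gene's mean over the arrays, for the 40 tested proteasome genes (rows, grouped by role) on the 4 milrinone arrays (left) and the 4 untreated arrays (right); grey marks an empty cell. Strong colours gather in the columns of untreated 4 (Psmd7, Psmd1, Psma4) and untreated 1 (Psmb5, Psmb3).

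The other genes of the pathway were read from a list of 32 ubiquitin and proteasome genes whose symbols lie outside the Psm series, among them Sem1 and Adrm1, which also encode proteasome subunits. Of these 23 had a probe set of 1 symbol and 22 were tested, and 0 passed limma's adjusted threshold. At an unadjusted p under 0.05, 1 was higher and 1 lower, 2 of 22 against 9.85% of all genes tested. The median log2 difference was 0.08, with 18 genes above 0 and 4 below. Over all genes tested the median was 0.07, and 62.8% were above 0. Vcp, the ATPase that pulls ubiquitinated proteins out of complexes, read 1107, 1069.7, 1235 and 1196 in milrinone and 2666, 1693, 1303 and 2121 in untreated oocytes. All milrinone values lay below all untreated values, and the log2 difference was -0.70 (SE 0.20, -1.14 to -0.26; limma adjusted p = 0.43), or -0.36 without untreated 1 and 4. Ecpas, a scaffold that binds proteasomes, read 2670.1, 2686, 3217 and 2374 in milrinone and 1523, 1996, 2611 and 1836 in untreated oocytes, a log2 difference of 0.47 (0.11 to 0.84; limma adjusted p = 0.47) with overlapping groups, or 0.25 without untreated 1 and 4. The next 4 genes by p were Faf1, a Vcp cofactor (0.19), Rad23b and Ubqln2, which carry ubiquitinated proteins to the proteasome (0.18 and 0.20), and Sem1, a small lid subunit (0.13), and none of them passed.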

How the data were processed

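The values are intensities on a linear scale that the authors deposited for each probe set of the 8 arrays, 4 from oocytes cultured with milrinone and 4 from untreated oocytes, and the groups were taken from the sample titles. How the scans were summarised and scaled, and why some cells are empty, is not given in the sources used here. The deposited scaling was kept, and empty cells (56.9% to 58.8% of milrinone arrays, 48.4% to 58.1% of untreated arrays) were left out. Gene names came from the platform annotation, with symbols brought up to date by Entrez number from the RefSeq gene table.

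Differences were tested on log2(intensity + 16), which understates changes of dim probe sets, in R 4.3.3 by limma 3.58.1 (two-sided, lmFit and then eBayes with trend) over 16288 probe sets, with Benjamini-Hochberg adjustment. The fit was tested on simulated data. Tables and plots were made with Python 3.11.15 and matplotlib 3.10.9. Where replicates are technical, p-values measure only the spread between these samples, and the number of arrays limits the precision.

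Genes were named by their brightest tested probe set. All array values were given for up to 4 genes of a class by unadjusted p and for up to 6 pathway genes. Untested genes also had them for probe sets listed on at least 3 arrays of 1 group and at most 1 of the other. Psma7, Psmb3, Psmd6, Psmd9 and second probe sets were added for their spread after their values were seen. The members, classes and lists were chosen with earlier results of these data known. Alternatives were other pseudocounts, normalizations, filters and variance models, a replicate block, and arrays left out. Background correction and slide were not tried, as neither scanner files nor slide labels were used here.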

Additional observations from a re-analysis of the deposited data

Results flagged for a closer look

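In a group of 4 arrays, 1 array stood apart when its gap to the nearest other exceeded Dixon's critical share of the group's range on the log2 scale. This held for 7 of the 98 groups examined, where chance gives about 1 in 20, or 4.9. Untreated 4 was the high array for Psmd7 (0.860), Psmd1 (0.856) and Psma4 (0.838). Milrinone 1 was high for Psme3 (0.863), and milrinone 4 was low for Psmc2 (0.833). Milrinone 2 was high for the mean deviation of the base genes (0.965) and for that of all proteasome genes (0.890). No cause was tested.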

How the results depend on the processing

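No proteasome probe set and no pathway gene passed limma's adjusted threshold under any of the 20 alternatives with a test. Another 2 gave class medians only, and 4 of the 22 in all were chosen after seeing the data. The smallest adjusted p of a proteasome gene was 0.12. The calls over all probe sets ranged from 9 without milrinone 3 to 106 with array weights, against 19. These included 13 with a replicate block, 69 without untreated 1 and 85 without untreated 1 and 4. Same-numbered arrays deviated with correlations of 0.03, -0.20, -0.02 and -0.27, so the numbers were not read as pairs. With the replicate block 0 proteasome probe sets and 0 pathway genes passed, and the block changed no call among them. Of 1055 values of 53 single results, 969 kept their direction, and 86 from 23 results did not, none of them larger than 0.24 in size in the fit reported; the cause was not tested. Quantile normalization moved the median of all probe sets by -0.19; relative to that shift the core particle median was 0.043 and the lid median 0.079, and the turned values were Psma1 0.0053, Psma5 0.061, Psmb1 0.043, Psmd4 0.015, Psmd5 0.052 and Psmd9 0.0015. Centring on the median gave Psmc1 -0.0070, Psmc3 -0.019, Psmd6 -0.014 and Psmg1 -0.0084. With array weights the lid median was -0.12, with Psma5 0.0017, Psmb1 0.018, Psmb3 0.041, Psmc5 -0.077, Psmc6 -0.11, Psmd6 -0.24, Psmd9 0.072, Psme4 -0.013, Psmg1 -0.0051 and Psmg3 0.062. Quantile normalization of the tested probe sets gave Psma7 -0.0061, Psmc1 -0.030, Psmc3 -0.044, Psmd6 -0.027 and Psmg1 -0.031. Without untreated 1 and 4 the lid median was -0.080, with Psma5 0.0078, Psmb1 0.065, Psmb11 -0.033, Psmb3 0.029, Psmc5 -0.092, Psmc6 -0.16, Psmd1 0.013, Psmd6 -0.37, Psmd9 0.29, Psmg1 -0.039, Psmg3 0.057 and Ubqln2 -0.017. Leaving out 1 array at a time gave ranges across 0 of -0.11 to 0.043 for Psma1, -0.0019 to 0.058 for Psma2, -0.018 to 0.082 for Psma3, -0.032 to 0.012 for Psma5, -0.11 to 0.25 for Psma7, -0.048 to 0.049 for Psmb1, -0.055 to 0.18 for Psmb11, -0.23 to 0.12 for Psmb3, -0.091 to 0.14 for Psmc1, -0.035 to 0.042 for Psmc3, -0.0021 to 0.11 for Psmc4, -0.026 to 0.12 for Psmc5, -0.086 to 0.12 for Psmc6, -0.052 to 0.041 for Psmd5, -0.26 to 0.14 for Psmd6, -0.22 to 0.19 for Psmd9, -0.15 to 0.022 for Psmf1, -0.076 to 0.065 for Psmg1 and -0.079 to 0.058 for Psmg3. The same arrays left out gave -0.76 to -0.35 for Psmb5 and -0.15 to -0.07 for the beta ring median, which was -0.027 under quantile normalization relative to the shift and -0.070 with array weights. Empty cells left 7 genes untested, and an empty cell gives no limit on the level.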
